A study of Mus musculus with 3 samples.

Results

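Pou3f1, Pou3f2, Pou3f3 and Pou3f4 are the class III POU transcription factor genes of the mouse, and they were chosen by symbol from the gene list that came with the counts, as 4 genes of 32285. Each has a single exon, and the family was picked with its levels per nucleus in these libraries already known, so the levels below are a description and carry no test. They were followed across classes of nuclei defined by marker genes in 3 single-nucleus RNA libraries of mouse hippocampus: doxorubicin plus ACY-1083, doxorubicin alone, and an untreated control. Doxorubicin is an anthracycline used in chemotherapy and ACY-1083 is an inhibitor of the deacetylase HDAC6; by its title the series asks whether inhibiting HDAC6 undoes the effect of doxorubicin on cognition. Each group is 1 library, made from the pooled frozen hippocampi (both sides) of 4 mice, and the labels used here give no dose, time, strain, sex or age. With 1 library per group no difference between groups has a replicate check, no p-value is given, and the 95% intervals cover counting error only.

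POU factors bind DNA with a bipartite domain, made of a POU-specific part and a POU homeodomain, at sites related to the octamer motif. The class III members act in the developing nervous system, often together with SOX factors, and their genes lack introns. Pou3f1 (Oct6 or SCIP) is known for the timing of myelination in Schwann cells, Pou3f2 (Brn2) and Pou3f3 (Brn1) for the production of cortical neurons, in which they act redundantly, and for hypothalamic and kidney development, and Pou3f4 (Brn4) for the inner ear, where loss of the X-linked gene causes deafness.

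The members are alike where they encode the DNA-binding domain, which bears on whether short reads could be assigned to the wrong one. The 60-base stretch below lies in the region encoding the POU-specific part. It is shown 5′ to 3′ on the coding strand (GENCODE vM21, GRCm38), with capitals at bases that differ from the base most common among the 4 genes. At 1 position the genes were split evenly, and there the C of Pou3f1 and Pou3f3 is the one in capitals.
Pou3f1: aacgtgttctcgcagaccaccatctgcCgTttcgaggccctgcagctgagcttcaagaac
Pou3f2: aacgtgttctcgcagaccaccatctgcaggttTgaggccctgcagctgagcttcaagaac
Pou3f3: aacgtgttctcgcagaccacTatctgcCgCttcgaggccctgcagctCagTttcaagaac
Pou3f4: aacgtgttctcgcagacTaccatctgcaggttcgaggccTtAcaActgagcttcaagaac
These stretches lie at chr4:124658556-124658615 (plus strand), chr4:22487166-22487225 (minus strand), chr1:42698193-42698252 (plus strand) and chrX:110815137-110815196 (plus strand), for Pou3f1, Pou3f2, Pou3f3 and Pou3f4 in turn. Identity between pairs over the stretch ran from 85.0% for Pou3f3 with Pou3f4 to 95% for Pou3f1 with Pou3f2. Over the whole transcripts the longest run of bases shared by a pair was 23 to 38 bases, and over the last 500 bases, where the reads of a 3′ library mostly fall, it was 8 to 12 bases. The annotation gives each member 1 transcript of 1 exon: Pou3f1 at chr4:124656807-124660655 (plus, 3849 bases), Pou3f2 at chr4:22482780-22488366 (minus, 5587 bases), Pou3f3 at chr1:42695768-42703176 (plus, 7409 bases) and Pou3f4 at chrX:110814280-110817207 (plus, 2928 bases). Their coding sequences are 1347, 1335, 1491 and 1083 bases long.

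Promoter sequence was at hand for Pou3f2, Pou3f3 and Pou3f4 (RefSeq, GRCm38.p6), and is shown because these genes shared a high class, astrocytes. The bases are those before the annotated start, 5′ to 3′ in the direction of transcription, with capitals marking CCAAT.
Pou3f2 promoter: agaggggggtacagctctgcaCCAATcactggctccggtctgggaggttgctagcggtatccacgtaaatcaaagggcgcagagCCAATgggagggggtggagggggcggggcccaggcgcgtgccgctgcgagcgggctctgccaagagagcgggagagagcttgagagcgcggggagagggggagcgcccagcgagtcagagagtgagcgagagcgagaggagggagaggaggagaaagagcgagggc
Pou3f3 promoter: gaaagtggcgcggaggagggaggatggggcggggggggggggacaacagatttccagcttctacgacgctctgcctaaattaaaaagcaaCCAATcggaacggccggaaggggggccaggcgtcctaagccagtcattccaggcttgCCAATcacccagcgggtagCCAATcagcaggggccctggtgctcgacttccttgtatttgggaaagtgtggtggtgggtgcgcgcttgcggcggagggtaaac
Pou3f4 promoter: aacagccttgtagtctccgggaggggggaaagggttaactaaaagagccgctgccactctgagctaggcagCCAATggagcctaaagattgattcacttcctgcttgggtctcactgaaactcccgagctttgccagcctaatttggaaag
The windows are chr4:22488367-22488616 (minus strand), chr1:42695518-42695767 (plus strand) and, as the 151 bases before the GENCODE start, chrX:110814129-110814279 (plus strand). Searched on both strands over 250 bases, CCAAT occurred 2 times for Pou3f2, 3 times for Pou3f3 and 3 times for Pou3f4. For Pou3f4, 1 of the 3 is in the bases shown. The others lie past the GENCODE start, within the annotated transcript. It occurred at least once in 33.85% of 32851 promoters of the same length. The octamer ATGCAAAT was in none of the 3 windows (1.6% of all promoters) and neither was TATAAA (12.37% of all promoters). A match is a run of letters and not a bound site.

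The libraries held 12192 barcodes with doxorubicin plus ACY-1083, 12221 with doxorubicin and 10909 in control, and unique molecular identifiers (UMIs) numbered 62151258 with doxorubicin plus ACY-1083, 21458785 with doxorubicin and 19175447 in control. Called doublets were 3.78% of barcodes with doxorubicin plus ACY-1083, 5.63% with doxorubicin and 7.80% in control. After filtering, 11729 nuclei were kept with doxorubicin plus ACY-1083 (median 3816 UMIs), 11532 with doxorubicin (1468.5 UMIs) and 10056 in control (1456 UMIs). The doxorubicin plus ACY-1083 matrix names a later Cell Ranger version (5.0.0) than the other 2 (4.0.0). Libraries shared few barcodes: 46 between doxorubicin plus ACY-1083 and doxorubicin, 29 between doxorubicin plus ACY-1083 and control, and 42 between doxorubicin and control. Clustering gave 37 clusters, of which 29 could be named by markers and 6 could not, while 2 were set apart as mixed; a class name below means likeness to its markers. Of these, 13 classes had at least 50 nuclei in each library. The hippocampal label held, with granule neurons of the dentate gyrus the most numerous class at 22% to 24.2% of nuclei, though thalamic or habenular neuron-like nuclei (2.54% to 3.30%) and choroid plexus-like nuclei (0.96% to 1.17%) were also present.

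Over whole libraries, the 4 genes stayed at close to the same number of UMIs per nucleus in all groups. Pou3f3 had 121 UMIs per 1000 nuclei with doxorubicin plus ACY-1083 (95% exact Poisson interval 115 to 128), 115 with doxorubicin (109 to 121.5) and 126 in control (119 to 133). Pou3f1 had 57.1, 50.3 and 54.4 UMIs per 1000 nuclei with doxorubicin plus ACY-1083, with doxorubicin and in control. The highest and lowest of these 3 values were 1.14-fold apart for Pou3f1, which is the ratio of doxorubicin plus ACY-1083 to doxorubicin. Pou3f2 had 18.6 UMIs per 1000 nuclei with doxorubicin plus ACY-1083, 19.9 with doxorubicin and 21.9 in control. Pou3f4, the scarcest, had 5.2, 5.64 and 6.17 UMIs per 1000 nuclei, from 61, 65 and 62 UMIs with doxorubicin plus ACY-1083, with doxorubicin and in control. A single nucleus held at most 5 UMIs of any member, so no total rested on a few nuclei. These are tag counts from the 3′ end and are not compared between members.

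Per nucleus, doxorubicin plus ACY-1083 over doxorubicin came to 1.14 for Pou3f1 (95% interval 1.02 to 1.27), 0.932 for Pou3f2 (0.771 to 1.13), 1.05 for Pou3f3 (0.978 to 1.14) and 0.923 for Pou3f4 (0.640 to 1.33). None of the 4 passed 1.5-fold with at least 50 UMIs summed over both libraries, a rule that called 6.47% of 309 other single-exon coding genes. Those genes had a median ratio of 1.05 (quartiles 0.957 to 1.18), and the members lay around it. Genes with more than 1 exon had a median ratio of 2.55 (quartiles 1.48 to 5.71, 17364 genes), and 74.4% of them passed 1.5-fold. As CPM, UMIs scaled to the total of the library or class, the same comparison gave 0.396 for Pou3f1, 0.325 for Pou3f2, 0.367 for Pou3f3 and 0.322 for Pou3f4, beside a median of 0.365 for the other single-exon genes and 0.889 for genes with more than 1 exon. The choice of scale thus moved the median single-exon gene from a log2 ratio of 0.07 per nucleus to -1.45 in CPM, and the direction of Pou3f1 and Pou3f3 turned with it. Levels per nucleus are used for this pair of libraries. Whether reads in introns were counted by one version and not by the other is not stated in the labels or file headers, and the part of this in the ratios was not tested.

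Doxorubicin over control, where both matrices name the same software version, gave CPM ratios of 0.917 for Pou3f1 (0.814 to 1.03), 0.904 for Pou3f2 (0.748 to 1.09), 0.906 for Pou3f3 (0.838 to 0.979) and 0.906 for Pou3f4 (0.630 to 1.31). None of the 4 passed 1.5-fold, a rule that called 2.84% of 15370 genes. All 4 were below 1, and only the interval of Pou3f3 left out 1. The median over all genes was 0.969 (quartiles 0.901 to 1.06) and over 304 other single-exon genes 0.965. With nuclei thinned to 1000 UMIs, only Pou3f3 stayed below 1, at 0.926. Pou3f1 then had 1.01, Pou3f2 1.12 and Pou3f4 1.05. Relative to the UMIs of other single-exon genes, Pou3f3 had 0.945. Doxorubicin serves as the denominator of the earlier ratios and the numerator of these, so the ratios for a gene are not independent of each other.

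**Figure D1:**
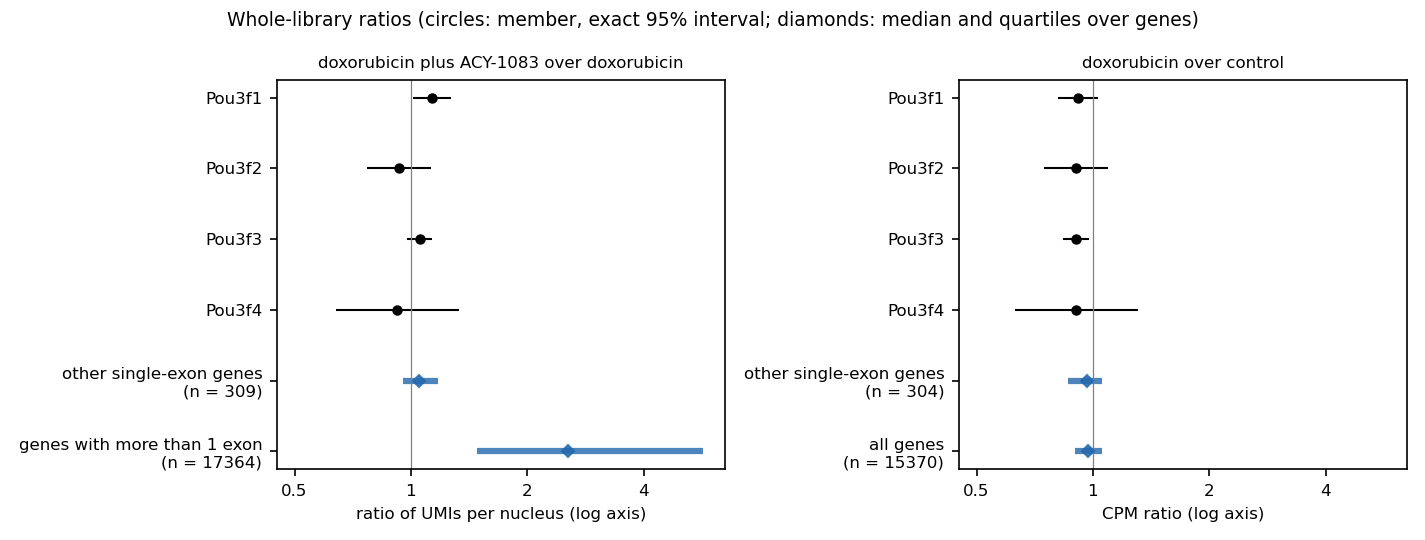
Whole-library ratios of each Pou3f gene on a log axis, with doxorubicin plus ACY-1083 over doxorubicin as UMIs per nucleus on the left and doxorubicin over control in CPM on the right. Circles are members with exact 95% intervals, and diamonds are medians with quartiles over background genes; the members sit near the other single-exon genes on both sides, while genes with more than 1 exon have a median of 2.55 on the left.

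Per nucleus and among the 13 classes, Pou3f1 was highest in CA1 pyramidal neuron-like nuclei, the output neurons of the hippocampus. There it had 168 UMIs per 1000 nuclei with doxorubicin plus ACY-1083 (146 to 193, 205 UMIs in 1217 nuclei), 114 with doxorubicin (95.9 to 135, 139 UMIs in 1219 nuclei) and 141 in control (119 to 166.5, 141 UMIs in 999 nuclei). These 3 values did not overlap those of any other class among the 13. CA1-like nuclei held 30.6%, 24.0% and 25.8% of all Pou3f1 UMIs with doxorubicin plus ACY-1083, with doxorubicin and in control. Oligodendrocyte precursor-like nuclei, the proliferating glia that give rise to oligodendrocytes, had 84.7 UMIs per 1000 nuclei with doxorubicin plus ACY-1083, 89.7 with doxorubicin and 82.0 in control. Mature oligodendrocyte-like nuclei had 39.0, 38.9 and 45.8 with doxorubicin plus ACY-1083, with doxorubicin and in control. The precursor range lay above the oligodendrocyte range in every library. Granule neuron-like nuclei of the dentate gyrus were the lowest class by the median library, at 22.6 with doxorubicin plus ACY-1083, 15.8 with doxorubicin and 14.0 in control. On the CPM scale the highest class of Pou3f1 in the control library was the precursor class, at 92 CPM (57.0 to 141). CA1-like nuclei had 68.65 CPM in control (57.78 to 80.96), so the order of these classes turned with the scale, though the intervals overlapped.

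Pou3f1 differed sharply between libraries in subicular or cortical excitatory neuron-like nuclei. No UMI was counted in 419 such nuclei with doxorubicin plus ACY-1083, which allows up to 0.716% of nuclei with one, against 58 UMIs in 681 nuclei with doxorubicin and 69 UMIs in 757 nuclei in control, or 85.2 and 91.2 UMIs per 1000 nuclei. With 3 counts in place of the 0, the level with doxorubicin plus ACY-1083 was at least 11.9-fold lower than with doxorubicin. The class was, however, made of different clusters in different libraries. Cluster 22, led by Dpp10, Cdh18 and Vwc2l, supplied 397 of the 419 nuclei with doxorubicin plus ACY-1083, whereas cluster 9, led by Rxfp1, Brinp3 and Fn1, supplied 681 nuclei with doxorubicin and 757 in control. Clusters 16 and 25 of the doxorubicin plus ACY-1083 library also had Tshz2 or Fn1 among their top 10 genes but stayed unnamed, and they had 155.5 and 208 Pou3f1 UMIs per 1000 nuclei. Pooled with these and with unnamed cluster 10, the class held 1520 nuclei with doxorubicin plus ACY-1083, 1266 with doxorubicin and 1405 in control, and Pou3f1 had 121, 88.5 and 97.5 UMIs per 1000 nuclei with doxorubicin plus ACY-1083, with doxorubicin and in control. In the pool the ratio of doxorubicin plus ACY-1083 to doxorubicin was 1.37 (1.08 to 1.75), so the direction turned with the grouping, which was made after the values were seen.

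Pou3f2 was highest in astrocyte-like nuclei, the glia that take up transmitter and ions around synapses. It had 110.5 UMIs per 1000 nuclei with doxorubicin plus ACY-1083 (90.8 to 133, 109 UMIs), 107.8 with doxorubicin (89.5 to 129, 122 UMIs) and 100 in control (80.7 to 122.5, 93 UMIs). The intervals overlapped throughout, and the ratios were 1.03 for doxorubicin plus ACY-1083 over doxorubicin per nucleus (0.785 to 1.34) and 0.957 for doxorubicin over control in CPM (0.725 to 1.27). Astrocyte-like nuclei, 8.41% to 9.82% of each library, held 50% of Pou3f2 UMIs with doxorubicin plus ACY-1083, 53.0% with doxorubicin and 42.3% in control. Oligodendrocyte precursor-like nuclei came next, with 78.2, 53.2 and 78.1 UMIs per 1000 nuclei from 24, 16 and 20 UMIs with doxorubicin plus ACY-1083, with doxorubicin and in control. Among the 13 classes the order from astrocytes to precursors to all others held without overlap of the 3-library ranges. Ependymal cell-like nuclei, too few to be among the 13, had 1 UMI in 29 nuclei with doxorubicin plus ACY-1083, 4 in 40 with doxorubicin and 2 in 31 in control. In mature oligodendrocyte-like nuclei Pou3f2 was at 0 UMIs of 1692 nuclei with doxorubicin plus ACY-1083, which allows up to 0.177% of nuclei with one, 3 UMIs of 900 nuclei with doxorubicin and 3 UMIs of 699 nuclei in control. CA1-like nuclei had 28.8, 16.4 and 25 UMIs per 1000 nuclei, from 35, 20 and 25 UMIs with doxorubicin plus ACY-1083, with doxorubicin and in control, and were the highest of the named neuron classes by the median library. Their range overlapped that of thalamic or habenular neuron-like nuclei.

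Per nucleus, Pou3f3 had a pair of high classes, astrocytes and CA1 pyramidal neurons. In astrocyte-like nuclei it had 268 UMIs per 1000 nuclei with doxorubicin plus ACY-1083 (236 to 302), 266 with doxorubicin (237 to 298) and 295 in control (261 to 332). In CA1-like nuclei it had 313 with doxorubicin plus ACY-1083 (282 to 346), 174 with doxorubicin (151 to 199) and 199 in control (172.5 to 229). The ranges of these classes overlapped, because CA1 was the higher in the doxorubicin plus ACY-1083 library and astrocytes in the other libraries. Per nucleus, both lay above every other class. In CPM in control, astrocytes had 342 and CA1 had 96.9, and oligodendrocyte precursor-like nuclei lay above CA1. Those precursors had 33 Pou3f3 UMIs, where 21 Pou3f1 UMIs came to 92 CPM, so the order turned with the scale. GABAergic interneuron-like nuclei had 143 UMIs per 1000 nuclei with doxorubicin plus ACY-1083, 120 with doxorubicin and 109 in control. Split by markers of origin, interneurons of the medial ganglionic eminence had 172, 113 and 139 and those of the caudal ganglionic eminence 131, 129 and 80.4 with doxorubicin plus ACY-1083, with doxorubicin and in control, and the ranges of these subclasses overlapped. Among hippocampal excitatory neurons the gene was lower outside CA1, with 48.8, 43.1 and 61.9 UMIs per 1000 nuclei in CA2 and CA3 and 65.4, 64.6 and 72.6 in the dentate gyrus with doxorubicin plus ACY-1083, with doxorubicin and in control. The CA1 range did not overlap that of either class.

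Pou3f4 was the scarcest member, and its highest class was again astrocyte-like nuclei. They had 22.3 UMIs per 1000 nuclei with doxorubicin plus ACY-1083 (14.0 to 33.8, 22 UMIs), 21.2 with doxorubicin (13.6 to 31.6, 24 UMIs) and 25.8 in control (16.5 to 38.4, 24 UMIs). Those nuclei held 36.1%, 36.9% and 38.7% of the gene's UMIs with doxorubicin plus ACY-1083, with doxorubicin and in control. The next class, GABAergic interneurons, had 5.38 with doxorubicin plus ACY-1083, 7.73 with doxorubicin and 12.4 in control, with no overlap of ranges. Among interneurons the caudal ganglionic eminence subclass had 1, 4 and 5 UMIs with doxorubicin plus ACY-1083, with doxorubicin and in control, too few to order the libraries. No UMI was counted in Cajal-Retzius cell-like nuclei, the reelin-secreting neurons of the outer layers, in any library, where counts of 0 allow up to 3.85% of nuclei with one with doxorubicin plus ACY-1083, 2.46% with doxorubicin and 3.90% in control. Below the top class the ranges of neighbours mostly overlapped and no order could be read.

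**Figure D2:**
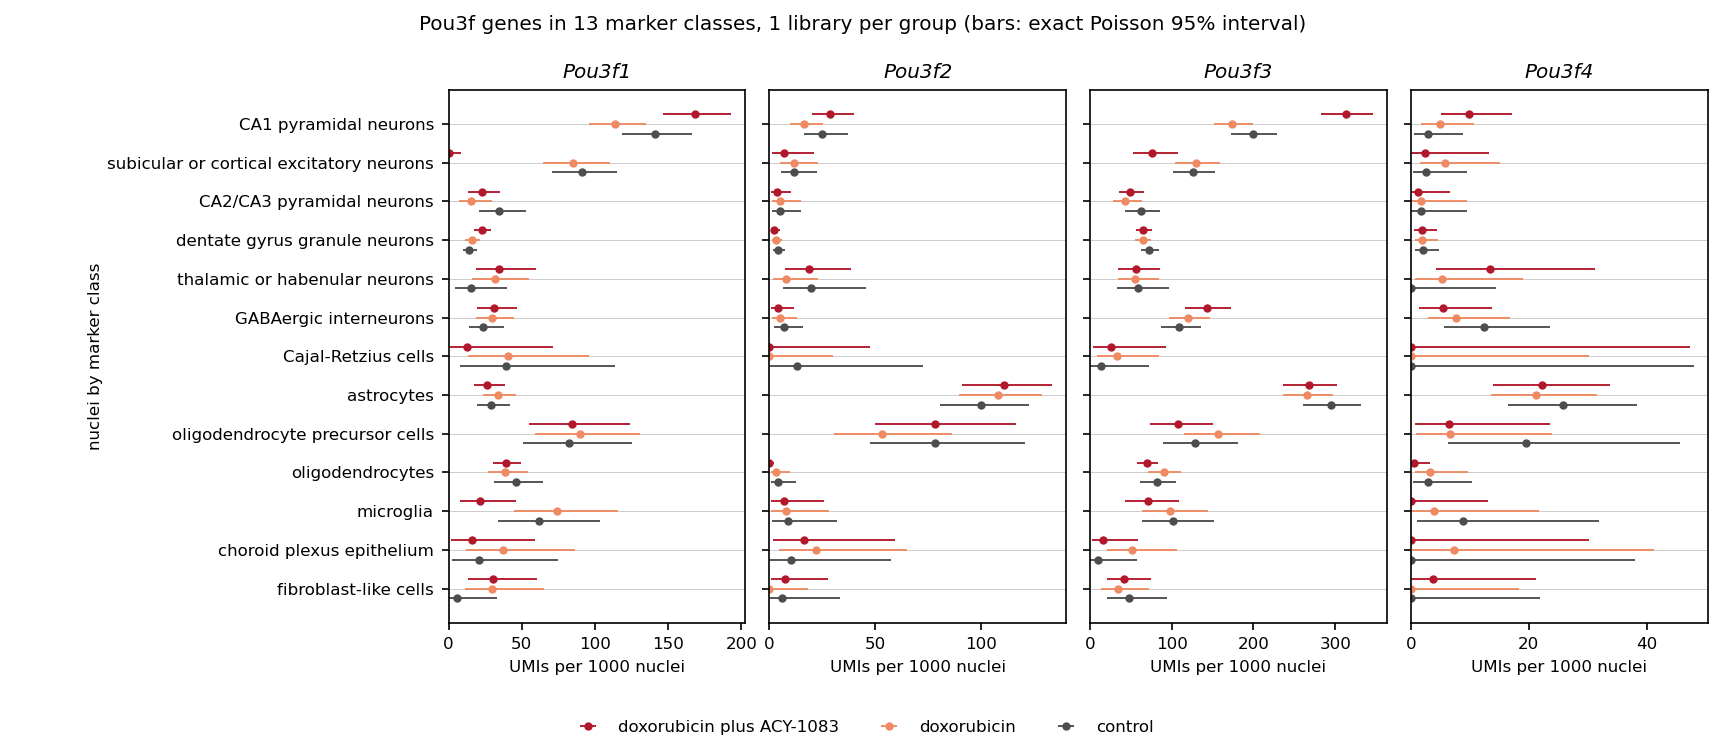
UMIs per 1000 nuclei of each Pou3f gene (panels, each with its own scale) in 13 marker classes (rows), with 1 point per library and exact Poisson 95% intervals; doxorubicin plus ACY-1083 is drawn above doxorubicin and control. Per nucleus, Pou3f1 is highest in CA1, Pou3f2 and Pou3f4 in astrocytes, and Pou3f3 in both. In CPM, Pou3f3 is lower in CA1 than in astrocytes in every library, and in control also lower than in oligodendrocyte precursors. On that scale Pou3f1 in control is highest in oligodendrocyte precursors. The Pou3f1 point at 0 in subicular or cortical nuclei is the doxorubicin plus ACY-1083 library.

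Because free RNA can give a nucleus UMIs of genes it does not express, the share of nuclei with a UMI was set beside microglia-like nuclei, which come from a separate, blood-related lineage. Pou3f3 was detected in 22% of astrocyte-like nuclei with doxorubicin plus ACY-1083, 22% with doxorubicin and 24.5% in control, against 7.09%, 8.59% and 8.37% of microglia-like nuclei with doxorubicin plus ACY-1083, with doxorubicin and in control. Median depths with doxorubicin plus ACY-1083, with doxorubicin and in control were 1822.5, 852.5 and 795 UMIs in those astrocytes and 1569, 1380 and 1419 UMIs in those microglia. The astrocyte shares were thus higher at a lower depth in the doxorubicin and control libraries. Pou3f2 was detected in 9.94%, 10.1% and 9.14% of astrocytes and in 0.709%, 0.781% and 0.881% of microglia with doxorubicin plus ACY-1083, with doxorubicin and in control. After thinning every nucleus to 500 UMIs, which left out none because each barcode had at least that many, it was detected in 2.84% of astrocytes with doxorubicin plus ACY-1083, 5.92% with doxorubicin and 5.81% in control, and in no microglia of the 3 libraries. Thinned shares of Pou3f3 were 6.69%, 12.9% and 16% in astrocytes and 1.06%, 2.34% and 3.52% in microglia with doxorubicin plus ACY-1083, with doxorubicin and in control. Both genes were above the microglial share in astrocytes of every library, thinned or not.

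Pou3f1 was less clear by the same comparison. It was detected in 14.8% of CA1-like nuclei with doxorubicin plus ACY-1083, 10.4% with doxorubicin and 13.3% in control, at median depths of 6628, 2060 and 1952 UMIs. Microglia-like nuclei had 2.13%, 7.42% and 5.73% with doxorubicin plus ACY-1083, with doxorubicin and in control. Thinned to 500 UMIs, the CA1 shares were 1.81%, 3.28% and 3.30% and the microglial shares 0.709%, 4.69% and 0.881% with doxorubicin plus ACY-1083, with doxorubicin and in control. CA1 lay above microglia in 2 libraries and below it with doxorubicin, so no order of these classes is read from the doxorubicin library at equal depth. In oligodendrocyte precursor-like nuclei the share was 8.14% with doxorubicin plus ACY-1083, 7.97% with doxorubicin and 8.20% in control, close to the microglial share with doxorubicin, at median depths of 2295, 851 and 741.5 UMIs with doxorubicin plus ACY-1083, with doxorubicin and in control. Thinned, the precursor shares were 0.326% with doxorubicin plus ACY-1083, 4.65% with doxorubicin and 4.69% in control, above microglia in control and not in the other libraries. These shares were above those of CA1 with doxorubicin and in control, and below with doxorubicin plus ACY-1083. Microglia need not be a floor for Pou3f1, as they had 21.28 to 74.22 UMIs per 1000 nuclei across libraries. Granule neuron-like nuclei had 13.95 to 22.57. Detection in precursors with doxorubicin plus ACY-1083 and with doxorubicin is therefore read neither as background nor as above it. Pou3f4 was detected in 2.13%, 2.12% and 2.58% of astrocytes and in 0%, 0.391% and 0.881% of microglia with doxorubicin plus ACY-1083, with doxorubicin and in control, the 0 allowing up to 1.06%.

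Nuclei with UMIs of more than 1 member were few. No member was detected in 9823 nuclei with doxorubicin plus ACY-1083, 9734 with doxorubicin and 8352 in control, and exactly 2 members were detected in 188 nuclei with doxorubicin plus ACY-1083, 146 with doxorubicin and 153 in control. In CA1-like nuclei Pou3f1 and Pou3f3 were found together in 51, 29 and 25 nuclei with doxorubicin plus ACY-1083, with doxorubicin and in control. Of CA1-like nuclei with Pou3f1, 28.3% also had Pou3f3 with doxorubicin plus ACY-1083, 22.8% with doxorubicin and 18.8% in control, and of those without it 24.6%, 14.6% and 16.6% did with doxorubicin plus ACY-1083, with doxorubicin and in control. Nuclei with Pou3f1 were also deeper, with medians of 7490.5, 2264 and 2110 UMIs with doxorubicin plus ACY-1083, with doxorubicin and in control, against 6628, 2060 and 1952 for the class, and the part of depth in this was not tested. In astrocyte-like nuclei Pou3f2 and Pou3f3 were found together in 24 nuclei with doxorubicin plus ACY-1083, 28 with doxorubicin and 23 in control. Pou3f3 was then detected in 24.5%, 24.6% and 27.1% of astrocytes with Pou3f2, and in 21.7%, 21.7% and 24.3% of those without it, with doxorubicin plus ACY-1083, with doxorubicin and in control. At these depths most nuclei of a class that has the gene gave no UMI of it, so a nucleus without a UMI is not shown to lack the transcript.

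Within classes, 14 pairs of a member and a class had 50 UMIs or more for doxorubicin over control, and 1 of them passed 1.5-fold in CPM. The same rule called 6.96% of 70615 gene and class pairs. The pair was Pou3f3 in CA2 and CA3 pyramidal neuron-like nuclei, with a ratio of 0.662 (0.381 to 1.13) from 25 UMIs with doxorubicin and 36 in control, an interval that held 1. The interval left out 1 for 2 other pairs. Pou3f1 in CA1-like nuclei had 139 UMIs with doxorubicin and 141 in control, a CPM ratio of 0.765 (0.601 to 0.974). Pou3f3 in astrocyte-like nuclei had 301 UMIs with doxorubicin and 274 in control, a ratio of 0.801 (0.678 to 0.947). Both were lower with doxorubicin in CPM. Relative to the UMIs of the other single-exon genes the ratios were 0.840 (0.660 to 1.07) and 0.854 (0.723 to 1.01), and per nucleus 0.808 (0.635 to 1.03) and 0.903 (0.764 to 1.07), so on those scales the intervals held 1. Ratios of the other 11 pairs ran from 0.826, Pou3f3 in CA1, to 1.13, Pou3f3 in GABAergic interneurons. Outside these classes, Pou3f3 in unnamed cluster 6 had 97 UMIs with doxorubicin and 139 in control, a CPM ratio of 0.627 (0.479 to 0.819), also past 1.5-fold lower, and 0.678 per nucleus (0.518 to 0.886), short of it. In unnamed cluster 10 Pou3f3 had 68.5 CPM with doxorubicin and 71.9 in control. The share of all genes past 1.5-fold was not computed in these clusters.

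For doxorubicin plus ACY-1083 over doxorubicin, 16 pairs had 50 UMIs or more and 4 passed 1.5-fold per nucleus, beside 14.6% of 772 pairs of other single-exon genes. Of these pairs 2 were higher (10.4% of the 772) and 2 lower (4.27%). In CPM all 16 were past 1.5-fold lower, as were 97.7% of the 772. The 2 higher pairs were both in CA1-like nuclei. Pou3f3 there had a ratio of 1.80 (1.52 to 2.14), and Pou3f2 one of 1.75 (0.984 to 3.2), whose interval held 1. Pou3f1 in the same nuclei came to 1.48 (1.19 to 1.85), short of the threshold. Other single-exon genes in CA1-like nuclei were also mostly higher, with a median ratio of 1.25 (quartiles 1.11 to 1.41), and 17.9% of 123 were past 1.5-fold higher. Relative to the UMIs of those genes, Pou3f3 had a ratio of 1.44 (1.22 to 1.72) and Pou3f1 one of 1.19 (0.950 to 1.48). The CA1 class was 1173 nuclei of cluster 13 and 44 of cluster 3 with doxorubicin plus ACY-1083, and wholly cluster 3 with doxorubicin (1219 nuclei) and in control (999 nuclei). How far the difference in the make-up of the class or in depth enters these ratios was not tested.

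A wider pool of CA1-like and subicular or cortical nuclei with unnamed clusters 6, 10, 16 and 25, formed after the values were seen, held 2749 nuclei with doxorubicin plus ACY-1083, 3307 with doxorubicin and 3203 in control. In it Pou3f3 had 216, 142 and 160 UMIs per 1000 nuclei and Pou3f1 143, 96.8 and 107 with doxorubicin plus ACY-1083, with doxorubicin and in control. The ratios of doxorubicin plus ACY-1083 to doxorubicin were 1.53 (1.35 to 1.73) for Pou3f3 and 1.47 (1.27 to 1.71) for Pou3f1. Relative to the UMIs of other single-exon genes they were 1.32 (1.17 to 1.49) and 1.27 (1.10 to 1.48). These ratios were above 1 on both scales, but the pool was made of different clusters: clusters 16 and 25 held nuclei of the doxorubicin plus ACY-1083 library alone, and cluster 6, where Pou3f3 had 118 and Pou3f1 83.9 UMIs per 1000 nuclei with doxorubicin, held 12 nuclei with doxorubicin plus ACY-1083 and 822 with doxorubicin. The part of this in the ratios was not tested. Outside it the ratio of Pou3f3 was 1.01 in astrocyte-like nuclei (0.850 to 1.19) and 1.01 in granule neuron-like nuclei (0.813 to 1.26), and a difference between the pool and these classes was not tested. Lower values were seen for Pou3f3 in oligodendrocyte-like nuclei, at 0.775 (0.579 to 1.04), and in their precursors, at 0.688 (0.427 to 1.10), with intervals that held 1. The other called pair, Pou3f3 in the subicular or cortical class, had 76.4 UMIs per 1000 nuclei with doxorubicin plus ACY-1083 and 129 with doxorubicin, a ratio of 0.591 (0.382 to 0.895). In the pool of the class with clusters 10, 16 and 25 it had 139.5 and 126 and a ratio of 1.10 (0.895 to 1.36).

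The members stand close to long noncoding RNA genes, and 2 of them share bases or an interval with one. The first 363 bases of Pou3f1 overlap Gm2164, an antisense gene. Pou3f3 lies wholly inside an intron of Gm20646 on the same strand, without touching its exons. Pantr1 starts 925 bases from Pou3f3 on the opposite strand and Pantr2 lies 3884 bases beyond its end, also on the opposite strand. The labels and headers do not state whether counting used strand, so reads of the antisense overlap, and reads of the Gm20646 intron that covers Pou3f3, cannot be told apart from those of the member.

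**Figure D3:**
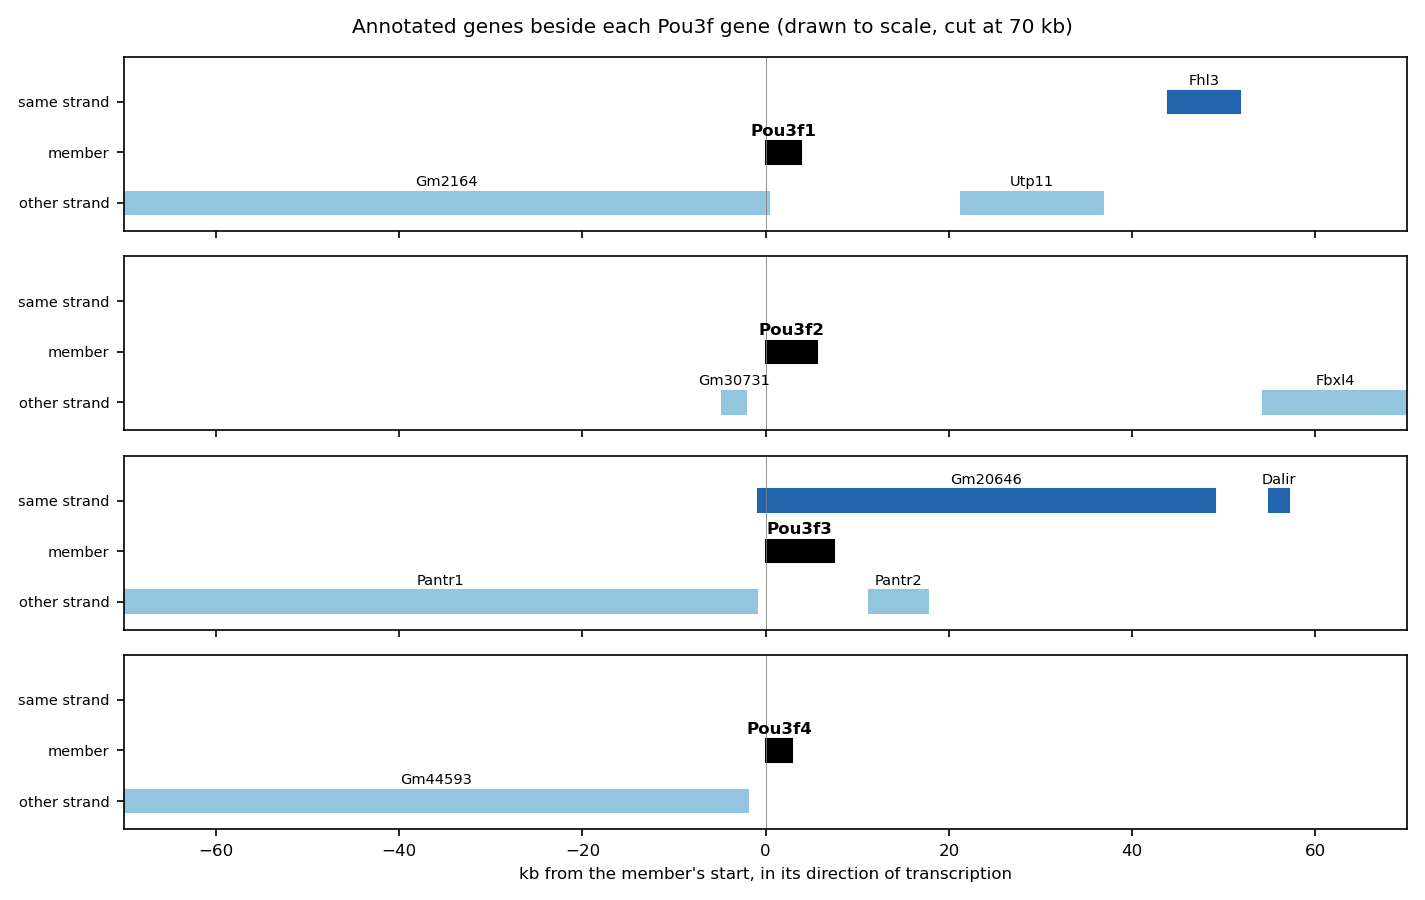
Annotated genes around each Pou3f gene, drawn to scale in kb from the member's start in its direction of transcription, with genes on the same strand above it and genes on the opposite strand under it. Gm2164 runs across the start of Pou3f1, and Gm20646 spans the whole of Pou3f3.

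Unlike the members, and like most genes with more than 1 exon, these neighbours had more UMIs per nucleus with doxorubicin plus ACY-1083. Gm2164 had 730 UMIs per 1000 nuclei with doxorubicin plus ACY-1083, 5.03 with doxorubicin and 4.97 in control, a ratio of doxorubicin plus ACY-1083 to doxorubicin of 145 (112 to 191). Pou3f1, which it overlaps, had a ratio of 1.14. Gm20646 had 119, 10.3 and 14.2 UMIs per 1000 nuclei with doxorubicin plus ACY-1083, with doxorubicin and in control, a ratio of 11.6 (9.59 to 14.1), around Pou3f3 with a ratio of 1.05. Pantr2 had 85.4 UMIs per 1000 nuclei with doxorubicin plus ACY-1083, 9.02 with doxorubicin and 9.35 in control, a ratio of 9.47 (7.73 to 11.7). Pantr1 had 295 with doxorubicin plus ACY-1083, 106 with doxorubicin and 86.4 in control, a ratio of 2.77 (2.59 to 2.96). All of these have more than 1 exon in the annotation. Dalir, a noncoding gene 47535 bases past Pou3f3 with a single exon, had 2.98, 3.21 and 3.98 UMIs per 1000 nuclei with doxorubicin plus ACY-1083, with doxorubicin and in control, a ratio of 0.930 (0.569 to 1.52). Gm44593, beside Pou3f4, had 452 UMIs with doxorubicin plus ACY-1083, 8 with doxorubicin and 6 in control. Of the 10 annotated genes within 50 kb of a member that are in the gene list, 8 had 50 UMIs or more, and 6 of these were past 1.5-fold higher per nucleus, close to the 71.8% of all 18030 genes that were. The median log2 ratio was 2.88, against -0.01 over the members and 1.28 over all genes tested.

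**Figure D4:**
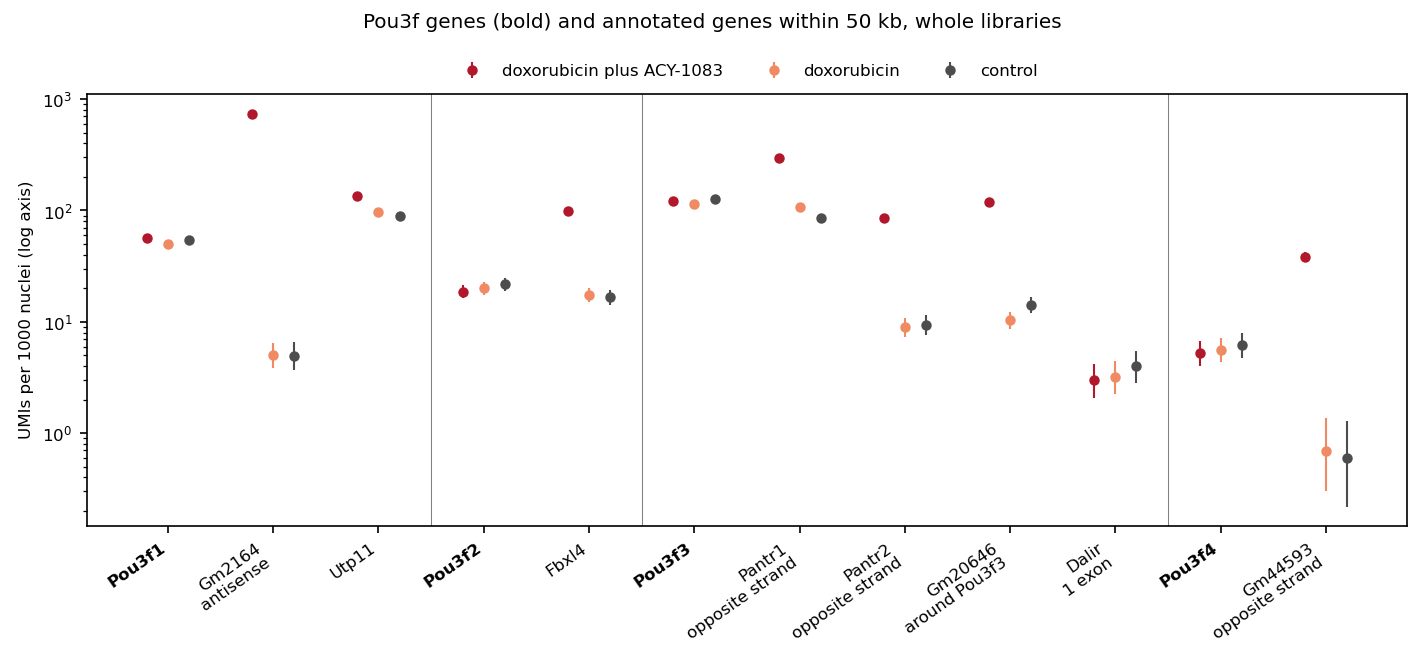
UMIs per 1000 nuclei (log axis) of each Pou3f gene, in bold, and of annotated genes within 50 kb of it, with 1 point per library and exact Poisson 95% intervals. The members lie level across the libraries, whereas Gm2164 is at 730 with doxorubicin plus ACY-1083 and near 5.03 with doxorubicin.

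Set by class, Gm2164, Pantr1 and Pantr2 were high in classes where the member beside them was high in the doxorubicin plus ACY-1083 library. Gm2164 had 3560 UMIs per 1000 CA1-like nuclei there, 687 per 1000 oligodendrocyte precursor-like nuclei and 37.9 per 1000 granule neuron-like nuclei. Pantr1 had 949 per 1000 CA1-like nuclei and 455 per 1000 astrocyte-like nuclei, and Pantr2 had 235 and 173. The cluster without Pou3f1 UMIs, cluster 22, had 52.9 Gm2164 UMIs per 1000 nuclei in that library, whereas clusters 13, 16 and 25 had 3674, 3274 and 2292. Over the 13 classes, Pearson's r between Pou3f3 and Pantr2 on log2(CPM + 10) was 0.98 with doxorubicin plus ACY-1083, 0.87 with doxorubicin and 0.91 in control. Between Pou3f1 and Gm2164 it was 0.75, 0.52 and 0.66 with doxorubicin plus ACY-1083, with doxorubicin and in control. The likeness was not always particular to the adjacent member. Pantr2 had 0.75, 0.81 and 0.84 with Pou3f4 in the same order of libraries. With doxorubicin plus ACY-1083, Gm44593 had 0.70 with Pou3f4, beside it, and 0.78 with Pou3f2. Gm30731, beside Pou3f2, had 0.73 with Pou3f2 and 0.92 with Pou3f4 in that library. Doxorubicin over control, Pantr1 had a CPM ratio of 1.22 (1.12 to 1.33) and Gm20646 one of 0.719 (0.559 to 0.924), while Pou3f3 had 0.906. None of the 7 genes near a member with enough UMIs passed 1.5-fold in that comparison, a rule that called 2.84% of all genes.

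The genes whose pattern over classes was most like each member were chosen by Pearson's r over the 13 classes in the control library, among 11743 genes. The classes share a library and its depth, so these values describe and do not test. Pou3f2 was closest to Rfx4, a factor of ciliogenesis and neural tube patterning, with 0.90, 0.95 and 0.95 with doxorubicin plus ACY-1083, with doxorubicin and in control. Next came Rgcc, with 0.88, 0.87 and 0.94, and Hes5, a Notch target that holds back differentiation, with 0.94, 0.94 and 0.93 with doxorubicin plus ACY-1083, with doxorubicin and in control. Pou3f4 was closest to Kcnj16, an inward rectifier potassium channel subunit, with 0.81 with doxorubicin plus ACY-1083, 0.84 with doxorubicin and 0.97 in control. Sox21, a transcription factor, had 0.87, 0.88 and 0.95 with Pou3f4, and Rfx4 had 0.83, 0.85 and 0.95, with doxorubicin plus ACY-1083, with doxorubicin and in control. Pou3f2 and Pou3f4 thus shared Rfx4 among their closest genes. Pou3f3 was closest to Cntfr, the receptor subunit that binds ciliary neurotrophic factor, with 0.82 with doxorubicin plus ACY-1083, 0.70 with doxorubicin and 0.91 in control. It was followed by Sertad2, with 0.69, 0.36 and 0.91 with doxorubicin plus ACY-1083, with doxorubicin and in control, and by Pantr2, whose values stand above. The likeness of Pou3f1 did not carry over between libraries. Eif2b3, a subunit of a translation initiation factor, had 0.38 with doxorubicin plus ACY-1083, 0.03 with doxorubicin and 0.82 in control. Dpp3, a peptidase, had -0.22, 0.21 and 0.82, and Recql, a DNA helicase, had 0.30, 0.60 and 0.80, with doxorubicin plus ACY-1083, with doxorubicin and in control. Between members the closest pair was Pou3f2 and Pou3f4, with 0.88 with doxorubicin plus ACY-1083, 0.92 with doxorubicin and 0.87 in control.

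Other lists of the pathway were read by the same rule. Of 11 other POU genes, 5 had 50 UMIs or more, and 4 of these were past 1.5-fold higher per nucleus with doxorubicin plus ACY-1083 than with doxorubicin, as were 71.8% of all 18030 genes tested. Pou2f1 (Oct1), a widely expressed octamer-binding factor, had 508 UMIs per 1000 nuclei with doxorubicin plus ACY-1083, 81.3 with doxorubicin and 89.2 in control, and Pou6f1 had 206, 79.4 and 91.7 with doxorubicin plus ACY-1083, with doxorubicin and in control. The fifth, Pou5f2, has 1 exon and had 13, 11.8 and 11.9 with doxorubicin plus ACY-1083, with doxorubicin and in control; it was singled out after its values were seen. Of 11 SOX genes, whose proteins pair with class III POU factors on DNA, 9 had enough UMIs and 1 was higher, Sox10, named after its values were seen, at 89.35 UMIs per 1000 nuclei with doxorubicin plus ACY-1083, 19.7 with doxorubicin and 17.8 in control. Sox11, with a single exon, had 80.8, 78.6 and 88.1, and Sox8 had 56.4, 39.2 and 48.7, with doxorubicin plus ACY-1083, with doxorubicin and in control. Of 7 genes described as direct targets of a class III POU factor, 4 had enough UMIs and none was past 1.5-fold in that comparison. Fabp7, a lipid-binding protein of radial glia, had 19.5, 17.2 and 14.1 UMIs per 1000 nuclei, and Dll1, a Notch ligand, had 12.5, 12.3 and 10.7, with doxorubicin plus ACY-1083, with doxorubicin and in control. Median log2 ratios per nucleus of doxorubicin plus ACY-1083 to doxorubicin were 1.54 for the other POU genes, 0.00 for the SOX genes and 0.03 for the targets. For doxorubicin over control, no other POU gene or SOX gene was past 1.5-fold in CPM, with median log2 ratios of -0.15 and -0.09. The same rule called 2.84% of 15370 genes, with a median log2 ratio of -0.04, so none among so few genes sets these lists apart. The hormone gene Oxt, a target by its description and the only one of the 4 targets past 1.5-fold, was lower at 9 UMIs with doxorubicin, against 54 in control, and 29 of the 54 came from a single nucleus. It was named after its values were seen.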

How the data were processed

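Each library was deposited as UMI counts per gene and barcode, which the authors made with Cell Ranger: per the file headers version 4.0.0 for control and doxorubicin and 5.0.0 for doxorubicin plus ACY-1083, while the submitters' processing notes name version 6.0.0 and the build mm10. Per the labels' protocols, nuclei were freed with Triton X-100 and libraries made with the 10x 3' v3 kit. No source used here states whether intron reads or strand entered the counting.

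Nuclei with at least 300 genes and at most 5% mitochondrial UMIs were kept, and doublets called with Scrublet (expected rate 0.08) were removed. With scanpy 1.11.5, 2000 variable genes, less the 1 member among them, 30 principal components and 15 neighbours gave Leiden clusters at resolution 2. Clusters were named from marker lists where the mean log2 fold over the markers was at least 0.5, led the next class by 0.25 and rested on 3 detected markers. Resolution and these thresholds were set after clusters had been seen. The members and all gene lists were chosen with earlier results of these data known.

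Sums of UMIs over a class in a library are given as CPM or per 1000 nuclei with exact Poisson 95% intervals. Shares have Clopper-Pearson intervals, and ratios have them conditional on the summed count. All cover counting error only. The share allowed by a count of 0 is instead 3 counts over the number of nuclei, which lies below the Clopper-Pearson upper end. A ratio was called past 1.5-fold with at least 50 UMIs over both libraries. Exons came from GENCODE vM21, which matched 32235 of 32285 gene identifiers (99.85%); 1264 coding genes, members included, had a single exon. Named were all members in all classes, the 3 genes most like each member, and the 2 genes with the most UMIs of each other list. Called doublets differed between libraries. The ratio step was tested on simulated counts. Alternatives were other filters, clusterings and scalings, among them edgeR 4.0.16 and DESeq2 1.42.0 size factors.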

Additional observations from a re-analysis of the deposited data

How the results depend on the processing

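No paired analysis was possible because each group is 1 library and no replicate exists. Levels were recomputed as control CPM in the class highest on that scale. This was oligodendrocyte precursors for Pou3f1 and astrocytes for Pou3f2, Pou3f3 and Pou3f4. Of 20 recomputed levels, 18 moved by less than their counting interval. Keeping called doublets lowered the astrocyte level to 93.7 CPM for Pou3f2 (116 as reported) and to 280.1 CPM for Pou3f3 (342 as reported). No level in CA1-like nuclei was among those recomputed. At the lower Leiden resolutions tried, the class named CA1 held nuclei of the doxorubicin plus ACY-1083 library alone. A CA1 level in the other libraries could therefore not be checked at those resolutions. Of 28 whole-library ratios of doxorubicin over control, 27 stayed within their interval, and thinning to 1000 UMIs gave 1.12 for Pou3f2, against 0.904. Thinning also turned Pou3f1 to 1.01 and Pou3f4 to 1.05, above 1 though within their intervals. For doxorubicin plus ACY-1083 over doxorubicin, 11 of 16 stayed; at least 600 genes per nucleus gave 1.01 for Pou3f1, and CPM gave 0.396 for Pou3f1, 0.325 for Pou3f2, 0.367 for Pou3f3 and 0.322 for Pou3f4.

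Counts of member and class pairs past 1.5-fold depended on the setting. The 1 pair for doxorubicin over control became 0 with doublets kept, with at least 600 genes, at Leiden resolution 0.5 or 1, after thinning, per 1000 nuclei, relative to other single-exon UMIs, and with edgeR or DESeq2 factors. It became 2 with each library clustered alone and 4 with at least 20 UMIs. The 4 pairs for doxorubicin plus ACY-1083 over doxorubicin became 2 at resolution 0.5, 7 with each library clustered alone, 16 in CPM, 2 relative to other single-exon UMIs and 2 with the subicular class pooled. Why the counts moved was not tested. Resolution 1 and the pooled class were chosen after seeing the data, and the minimum of 20 UMIs has no value for levels. Depth limits Pou3f4 most, with 61 to 65 UMIs per library.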

Other observations

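Unnamed cluster 6, led by Col6a1, Cpne7 and Col5a2, held 822 nuclei with doxorubicin and 799 in control, but 12 with doxorubicin plus ACY-1083. In it Pou3f3 had 118 UMIs per 1000 nuclei with doxorubicin (95.7 to 144) and 174 in control (146 to 205), or 44.4 and 70.8 CPM, a CPM ratio of doxorubicin to control of 0.627 (0.479 to 0.819), which is past 1.5-fold. Pou3f1 had 83.9 with doxorubicin and 80.1 in control. Pou3f2 was scarce there, at 5 UMIs with doxorubicin and 3 in control, whereas unnamed cluster 10, led by Tshz2, Vwc2l and Gpc6, had 18 and 30 Pou3f2 UMIs in those libraries, or 30.8 and 46.3 per 1000 nuclei. Pou3f3 in cluster 10 had 123.1 UMIs per 1000 nuclei with doxorubicin and 123.5 in control. The share of all genes past 1.5-fold was not computed in either cluster, and no test was possible with 1 library per group.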
